A study of Homo sapiens with 9 samples.

Results

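RNA abundance was compared between 6 libraries of HEK293T cells in which a subunit of the SIN3 complex was knocked down and 3 control libraries. In 3 of the 6 the cells had received an siRNA against PHF12 and in the other 3 an siRNA against SUDS3. The 2 knockdowns carried equal weight, so that each log2 fold change is the mean of the PHF12 and the SUDS3 change against control. The genes described are those whose level lay on the same side of all 3 controls in all 6 knockdown libraries. Of 58735 genes counted, 18088 passed the filter on low counts, and 2881 of these met that criterion, 1395 above the controls and 1486 below.

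HEK293T is a human kidney-derived line with a gene for the SV40 large T antigen. By the labels, each culture received 1 siRNA at 10 nM, and RNA was taken after 36 h: a negative control siRNA, the PHF12 siRNA or the SUDS3 siRNA, with 3 libraries of each. No group was left untransfected, and 1 siRNA was named per target. Both knockdowns were set against the same control siRNA, so a change seen in both cannot be told apart from an effect of the control siRNA. Nothing in the labels tells whether the 3 libraries of a group came from separate cultures, and the spread behind each p may thus be technical. In bulk RNA, fewer cells of a kind and less RNA per cell cannot be told apart.

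SIN3 complexes are built on the scaffold proteins SIN3A and SIN3B, which bring the histone deacetylases HDAC1 and HDAC2 to chromatin. They are best known for repressing transcription by removing acetyl groups from histones. SUDS3 is a core subunit that supports deacetylase activity, and PHF12 is a PHD finger subunit found in one form of the complex. An siRNA lowers its target by near-complete pairing, and it can also lower other transcripts through short matches between its seed, the bases near its 5′ end, and their 3′ UTRs.

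Library totals ran from 37962926 to 50946148 counts, and mitochondrial genes took 4.98% to 5.67% of them. Of 14 tested genes known from the HEK293 lineage, such as PAX2, SIX2 and SALL1, 3 rose (1 without control replicate 3) and 5 fell. Among 9 fibroblast markers 4 could be tested, and their summed level was 14.4 to 15.9 CPM (counts scaled to 1000000 per library) in controls, 20.2 to 22.7 with the PHF12 siRNA and 24.6 to 26.8 with the SUDS3 siRNA. Most of it was COL1A1, and its part in any result was not tested. Epithelial and blood cell markers, 4 of 9 tested in each list, summed to at most 11.2 and 4.92 CPM in any library.

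The targeted genes were measured first. PHF12 stood at 50.3, 50.5 and 48.8 CPM in controls, at 27.9, 24.5 and 28.3 with its own siRNA, and at 59.5, 62.0 and 62.9 with the SUDS3 siRNA. It was thus low only in the libraries labelled for it and lay above control in the others. SUDS3 stood at 107, 114 and 112 CPM in controls, at 21.1, 22.3 and 22.9 with its own siRNA, and at 81.4, 80.1 and 81.5 with the PHF12 siRNA. SUDS3 was below control in all 6 knockdown libraries, with a change of -2.33 with its own siRNA and -0.46 with the PHF12 siRNA on the log2 scale. The pooled comparison therefore joins cells low in both transcripts, to different degrees, with cells low in SUDS3 alone.

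In the pooled test, edgeR's quasi-likelihood F-test with Benjamini-Hochberg adjusted p under 0.05, 2597 genes rose (14.4% of those tested) and 3058 fell (16.9%). Alone, the PHF12 siRNA changed 31.9% and the SUDS3 siRNA 38.7% of tested genes against control, and the pooled comparison 31.3%. The median pooled change of all tested genes was -0.02 on the log2 scale. Many of these calls came from 1 knockdown: in 368 of the genes called higher and 747 of those called lower the 2 knockdowns changed in opposite directions. The criterion of non-overlapping libraries was met by 7.71% of tested genes above control and 8.22% below. Of these, 1289 rose (7.13%) and 1335 fell (7.38%) in the pooled test, which uses the same libraries and is no independent support. The other 106 and 151 did not pass. In counts simulated for 17597 genes, 394 genes that were given no change also met the criterion. Some of the genes that meet it may thus be unchanged. When the 6 knockdown libraries were fitted as 1 group, so that differences between the knockdowns counted as error, 490 genes rose and 470 fell. Of the genes named below, SUDS3, TDRD6, CCDC96, AC083899.1, NPC1, LAMP1, MAP1LC3B, NEU1, XBP1, GSR, JUN, TGFB1, TGFBR1, ACVR2B, BTG2, FDXR, CDKN1A, CCNE1, SLC39A10, KMT2D, PCGF5, NPTX1, DICER1, CDH2 and every SIN3 subunit but ARID4A and SINHCAF did not pass in that fit.

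**Figure D1:**
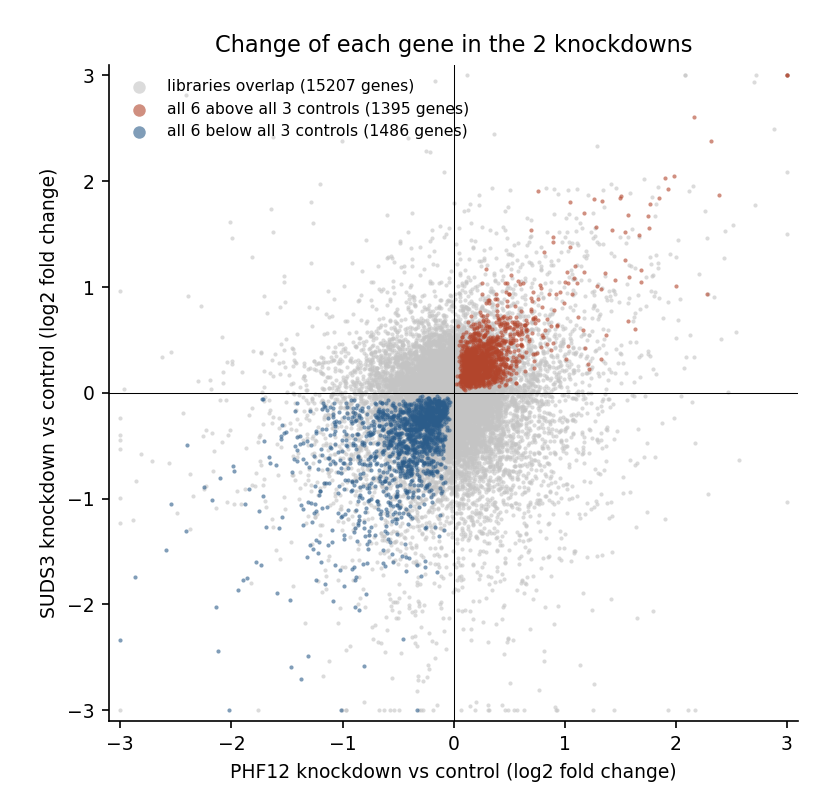
Log2 fold change against control with the PHF12 siRNA (x axis) and the SUDS3 siRNA (y axis) for the 18088 tested genes, 1 point each, with values past 3 drawn at 3. The 1395 genes above control in all 6 libraries fill a compact cloud at upper right and the 1486 below spread further at lower left; both axes use the same 3 control libraries and are not independent.

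The changes were small. Among genes that met the criterion and passed, the median pooled change was 0.26 for rises and -0.39 for falls on the log2 scale. Of the 1289 rises 958 also passed with each siRNA alone, and of the 1335 falls 940. With an average log2 CPM of at least 1, only 2 rises and 11 falls reached a change of at least 1 on the log2 scale with both siRNAs, and 60 rises and 138 falls reached at least 0.5. The 2 knockdowns also differed in size: the SUDS3 and PHF12 changes differed in 472 of the 1289 rises (36.6%) and 613 of the 1335 falls (45.9%) by the edgeR test of the difference. That difference passed in 43.9% of all tested genes. At the edge of the criterion, MEN1 lay just inside, its lowest knockdown and highest control value both rounding to 124.9 CPM. DCTN5 lay just outside, with both rounding to 135.7 CPM.

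Genes with shared changes differed from the rest in the heptamers, runs of 7 bases, held in their 3′ UTRs. Heptamers were ranked on these same fold changes after the values were seen, so what follows is a description. AATCACA led the ranking for genes lower with the PHF12 siRNA, GTACATT for genes lower with the SUDS3 siRNA, and AGCAACC for genes higher in the pooled comparison. The sources used here give no siRNA sequences, so whether these heptamers match their seeds was not tested. Of the 15 leading rises, 4 held a fall heptamer, and those sites are not shown. The sites below are a selection from the genes with the largest shared changes. Only sites of a heptamer ranked for the gene's own direction of change were picked, and not all of those. Each is 29 bases of the longest GENCODE 29 3′ UTR on GRCh38, read 5′ to 3′ on the transcript strand, with the heptamer in capitals.

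Among the rises, 5 genes held these sites of AGCAACC.
LMLN, chr3:198038834-198038862, plus strand: ctgtcctcatcAGCAACCcaaccaccttc
MPRIP, chr17:17185502-17185530, plus strand: aaaatgttgaaAGCAACCattcctatttt
TPM3, chr1:154157311-154157339, minus strand: tgttgttttgtAGCAACCatttgtaaaac
UBE2D1, chr10:58369045-58369073, plus strand: tgcagctgaaaAGCAACCaaattattttt
ZNF385A, chr12:54369196-54369224, minus strand: cttgacaatgtAGCAACCcaggcccccca

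Among the falls, GTACATT was held by the first 4 sites shown and AATCACA by the next 2.
ELAVL2, chr9:23690665-23690693, minus strand: ataacatagttGTACATTatctttgcggt
PRKAR2B, chr7:107160151-107160179, plus strand: tttgcaataaaGTACATTttgactttgtt
RAB23, chr6:57189853-57189881, minus strand: tttaagaaaatGTACATTctaattaattc
CYP1B1, chr2:38068576-38068604, minus strand: aggcttgcccaGTACATTtaaattttttg
ADI1, chr2:3497436-3497464, minus strand: acttaaggtgaAATCACAttttcttttcc
CA12, chr15:63325988-63326016, minus strand: ctgaattctggAATCACAaaccaagccat

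C3orf58 and LGI2 each held both fall heptamers in 1 3′ UTR.
C3orf58, chr3:143990001-143990029, plus strand: attacttcaaaAATCACAtgatgcttctg
C3orf58, chr3:143990136-143990164, plus strand: tgagtctgataGTACATTggcttgtgtat
LGI2, chr4:25002296-25002324, minus strand: agcccacaccaAATCACAacccaagatac
LGI2, chr4:25001724-25001752, minus strand: agcactcttggGTACATTctgggactgta

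A 3′ UTR was available for 13750 tested genes, searched on the transcript strand. AATCACA was held by 15.2% of all of them, by 30.2% of the 1324 genes below control in all 6 libraries and by 6.02% of the 1312 above. GTACATT was held by 13.9% of all, 28.7% of those below and 7.62% of those above. AGCAACC went the other way, at 9.20% of all, 8.08% of those below and 12.9% of those above. Both fall heptamers stood together in 4.01% of all 3′ UTRs, in 12.6% of those below control and in 0.762% of those above. The 3′ UTRs of genes below control were longer, with a median of 2205 bases against 1632 for all, and had a lower GC content, 38.97% against 43.78%. Those above control had a median of 1649 bases and 48.13% GC.

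Read the other way, the share of genes apart from control moved with the heptamers. Of 435 genes with both fall heptamers and not the third, 33.1% were below control in all 6 libraries and 1.61% above. Of 768 genes with AGCAACC alone, 16.8% were above and 4.82% below. The 9525 genes with none of the 3 were above in 10.6% and below in 7.08%, which was 1014 genes above and 674 below. Genes were also split by 3′ UTR length, counting AGCAACC genes with or without a fall heptamer. From 3023 bases up, 11.4% of 668 AGCAACC genes were above and 11.1% below control, against 11.6% and 9.55% with none of the 3. In shorter 3′ UTRs the shares above were 15.3% to 16.1% with AGCAACC and 8.11% to 12.4% with none. In every length range, 15.9% to 18.2% of genes with a fall heptamer were below, against 5.83% to 9.55% with none. The heptamers were chosen on these fold changes, so differences of this kind follow in part from that choice.

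**Figure D2:**
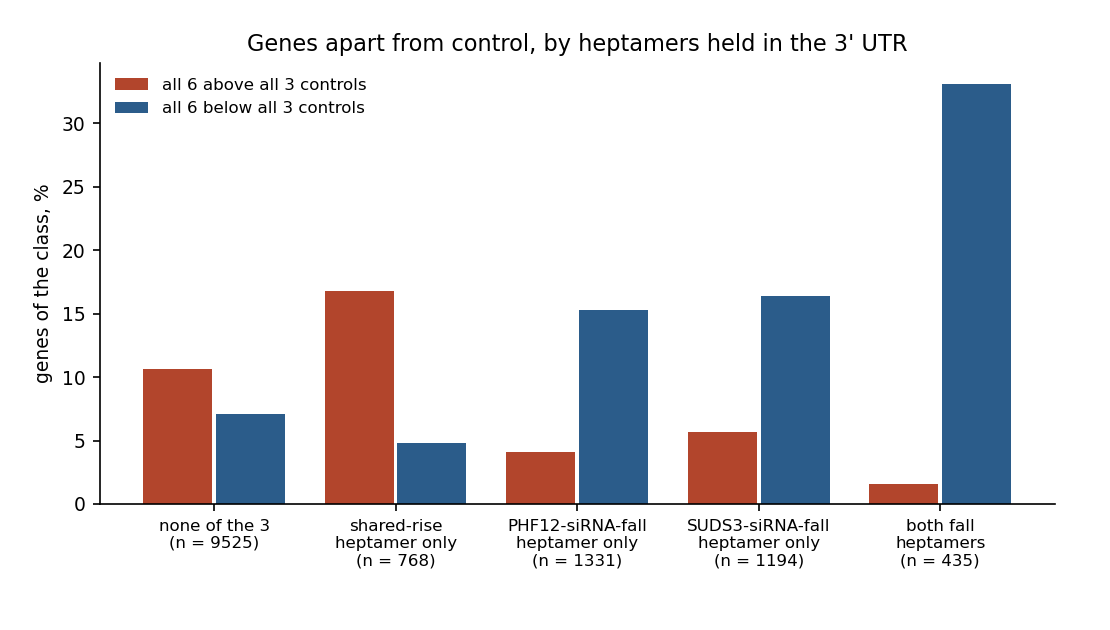
Percent of genes above (red) or below (blue) all 3 controls in all 6 knockdown libraries, by the heptamers held in the 3′ UTR, with the number of genes under each class. Genes with both fall heptamers reach 33.1% below and 1.61% above, and those with the rise heptamer alone 16.8% above.

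The rises were led by LMLN, CCDC173, RAB36, MPRIP, ZNF385A, TDRD6, TPM3, SYPL1, EIF5A2, YPEL3, RIBC1, STAT4, MAP1A, UBE2D1 and CCDC96, the 15 protein-coding genes with the largest smaller change of the 2 knockdowns. Of these, 7 held AGCAACC and 4 a fall heptamer, against 9.2% and 25.1% of all tested genes with a 3′ UTR. The change differed between the knockdowns in 1, MPRIP. LMLN, a leishmanolysin-like metallopeptidase at chr3:197960200-198043720, stood at 4.94, 5.71 and 4.75 CPM in controls, 13.6, 14.7 and 13.1 with the PHF12 siRNA and 15.6, 15.8 and 13.4 with the SUDS3 siRNA. The groups were far apart, and LMLN rose by 1.48 ± 0.10 (SE) on the log2 scale (adjusted p = 6.57e-14). Its 3′ UTR held 11 sites of AGCAACC, most of them in a tandem repeat, where the other 6 genes held 1 each.

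TPM3, a tropomyosin that lies along actin filaments, at chr1:154155304-154194648, stood at 259.6, 269 and 266 CPM in controls. With the PHF12 siRNA it stood at 433, 436 and 438 and with the SUDS3 siRNA at 429, 433 and 436. The 6 knockdown values lay close together and well above the controls. TPM3 rose by 0.72 with the PHF12 siRNA and 0.71 with that against SUDS3 on the log2 scale (pooled adjusted p = 4.29e-22), and 8 pseudogenes are named after it. MPRIP, which binds actin and myosin phosphatase, at chr17:17042545-17217679, stood at 106, 106 and 99.2 CPM in controls, 179, 178 and 178 with the PHF12 siRNA and 212, 211 and 207 with the SUDS3 siRNA. Here the SUDS3 libraries lay above the PHF12 libraries, with changes of 1.02 and 0.78, and the pooled rise was 0.90 ± 0.03 (SE). MPRIP overlaps FLCN and PLD6 on the opposite strand.

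Other leading rises were of lower level. RAB36, a small GTPase of membrane traffic, went from 10.1, 10.6 and 10.5 CPM in controls to 21.4, 21.1 and 19.4 with the PHF12 siRNA and 18.8, 18.7 and 18.4 with the SUDS3 siRNA. It held none of the 3 heptamers and rose by 0.92 ± 0.08 (SE). ZNF385A, a zinc finger protein, went from 19.5, 17.5 and 17.2 CPM to 35.0, 32.5 and 33.6 and to 31.5, 32.7 and 28.9 in the same order. MAP1A, which binds microtubules, rose by 0.72, SYPL1, a vesicle membrane protein, by 0.74, and UBE2D1, a ubiquitin-conjugating enzyme, by 0.70. EIF5A2, a form of translation factor eIF5A, rose by 0.72 and YPEL3 by 0.71. TDRD6, a tudor protein known from germ cells, ranged from 0.914 to 2.25 CPM in controls and 2.41 to 3.30 in the knockdowns. TDRD6 rose by 0.83 on the log2 scale, but without control replicate 1 its adjusted p was 0.0851. CCDC96 rose by 0.67, with an adjusted p of 0.0524 without control replicate 1 and 0.0713 without control replicate 2.

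The falls were led by TPD52, ELAVL2, CR2, MMP17, STUM, C3orf58, PRKAR2B, SLC7A2, PKIA, PHLDA2, ADI1, CYP1B1, RAB23, CA12 and LGI2. Of these, 13 held at least 1 fall heptamer, against 25.1% of all tested genes with a 3′ UTR and 46.3% of those below control. None held AGCAACC, and the change differed between the knockdowns in 7. TPD52, a protein of vesicle traffic on chromosome 8, stood at 66.4, 71.7 and 71.6 CPM in controls, 19.6, 19.8 and 21.6 with the PHF12 siRNA and 24.4, 21.3 and 23.5 with the SUDS3 siRNA. The highest knockdown value was far under the lowest control, and TPD52 fell by 1.69 on the log2 scale (SE 0.05, adjusted p = 2.42e-23). ELAVL2, an RNA-binding protein of the Hu family at chr9:23690104-23826337, went from 21.1, 22.1 and 22.9 CPM to 8.07, 8.46 and 10.0 and to 7.98, 6.17 and 8.43. It fell by 1.44 on the log2 scale, with no difference found between the knockdowns (SUDS3 minus PHF12 adjusted p = 0.107).

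A pair of genes that restrain protein kinase A were among the falls. PRKAR2B, a regulatory subunit of the kinase, stood at 29.3, 26.2 and 26.4 CPM in controls, 11.1, 13.8 and 13.5 with the PHF12 siRNA and 10.2, 10.3 and 10.4 with the SUDS3 siRNA. PKIA, an inhibitor of the kinase, stood at 32.4, 32.1 and 29.8 CPM in controls, 16.4, 13.4 and 15.2 with the PHF12 siRNA and 8.71, 11.1 and 10.7 with the SUDS3 siRNA. Both were lower with the SUDS3 siRNA, and PKIA fell by 1.07 with the PHF12 siRNA and by 1.63 with that against SUDS3 on the log2 scale. PKIA held both fall heptamers and PRKAR2B held GTACATT at 2 sites.

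ADI1 and CA12 fell further with the PHF12 siRNA. ADI1, a dioxygenase of the methionine salvage pathway, stood at 138, 136 and 149 CPM in controls, 55.6, 57.0 and 58.1 with the PHF12 siRNA and 66.2, 70.2 and 70.7 with the SUDS3 siRNA. CA12, a membrane carbonic anhydrase, stood at 6.86, 7.87 and 6.76 CPM in controls, 2.33, 1.90 and 2.32 with the PHF12 siRNA and 3.76, 3.34 and 3.82 with the SUDS3 siRNA. Both held AATCACA and not GTACATT, CA12 at 4 sites, and both were still below every control with the SUDS3 siRNA. RAB23, a GTPase that restrains hedgehog signalling, held GTACATT alone and fell further with the SUDS3 siRNA. It stood at 43.7, 43.0 and 45.3 CPM in controls. With the PHF12 siRNA it stood at 21.1, 22.5 and 23.1 and with the SUDS3 siRNA at 16.0, 16.7 and 18.1. CYP1B1, a cytochrome P450, fell by 1.17 on the log2 scale and SLC7A2, a transporter of cationic amino acids, by 1.14. MMP17, a membrane-anchored matrix metalloproteinase, and PHLDA2, an imprinted gene known for limiting placental growth, held none of the 3 heptamers and fell by 1.32 and 1.16. ADI1, CYP1B1 and RAB23 each overlap another tested gene that is read from the opposite strand. ELAVL2, CR2 and CYP1B1 held GTACATT alone and STUM AATCACA alone, with no difference found between the knockdowns. Of genes with both, TPD52 and C3orf58 fell further with the PHF12 siRNA and PKIA with that against SUDS3. In SLC7A2 and LGI2, which also held both, no difference was found. The part of the heptamers in these differences was not tested.

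**Figure D3:**
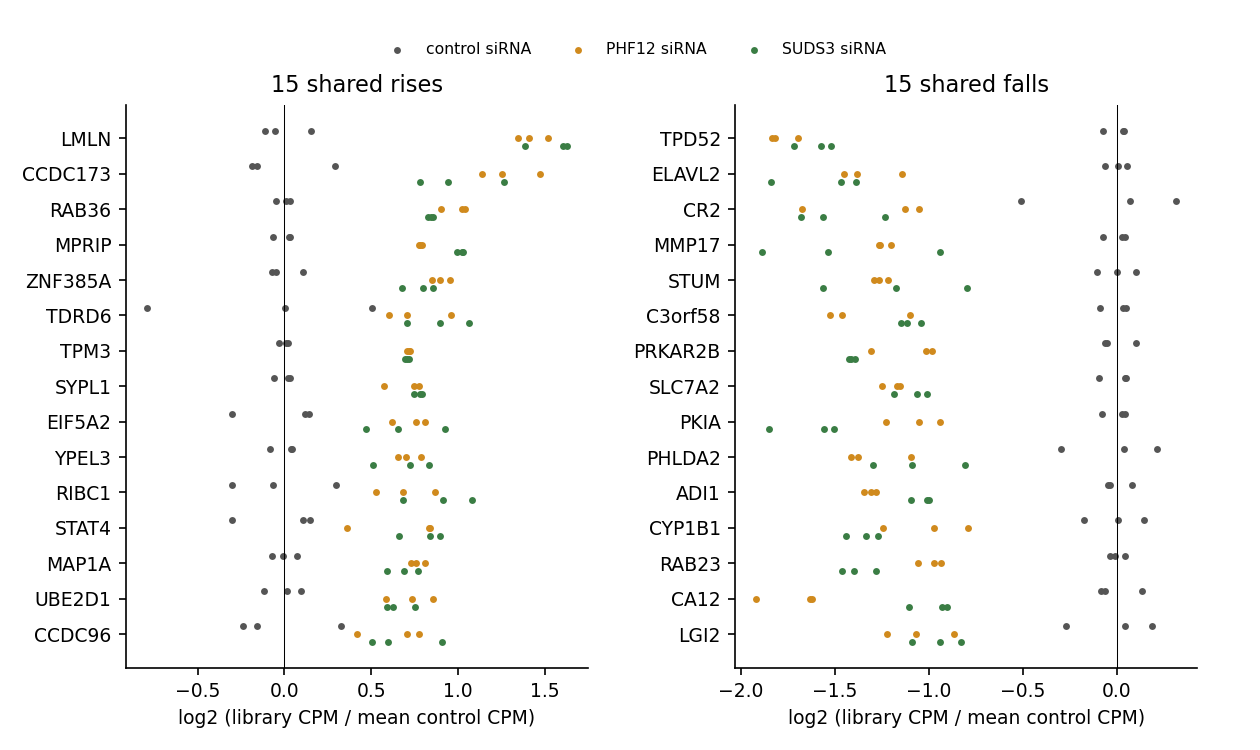
Level in each library relative to the mean of the 3 controls, log2 of the CPM ratio, for the 15 leading rises (left) and falls (right), with 1 point per library. In every row the 6 knockdown points lie on one side of the 3 control points, as the choice of genes requires; the controls of TDRD6 and CR2 spread most.

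Genes apart from control were fewer outside protein-coding genes. Protein-coding genes made up 94.3% of the 1395 genes above control and 89.2% of the 1486 below. Of 1221 antisense genes tested, 1.64% lay above and 4.67% below, against 9.48% and 9.55% of protein-coding genes. Protein-coding genes above and below control had a median log2 CPM of 5.87 and 5.12, against 4.87 for all tested protein-coding genes. The part of expression level in these shares was not tested. FENDRR, a long non-coding RNA known from heart and body wall development, stood at 9.14, 10.6 and 10.0 CPM in controls, 5.91, 6.33 and 6.30 with the PHF12 siRNA and 4.31, 5.09 and 5.30 with the SUDS3 siRNA. It fell by 0.85 on the log2 scale (adjusted p = 1.78e-07). FER1L4, a transcribed pseudogene, rose by 0.78, from 3.11, 2.77 and 2.53 CPM to 5.74, 4.74 and 5.56 and to 3.76, 4.34 and 5.00. CIRBP-AS1 rose by 0.68, and as it overlaps CIRBP on the opposite strand its reads may include those of CIRBP. AC083899.1 rose by 0.66, with an adjusted p of 0.069 without control replicate 2 and 0.115 without control replicate 3.

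By chromosome, the share above control was highest on chromosome 17, with 131 of 1092 genes, and lowest on chromosome 18, with 10 of 274. The share below control was highest on chromosome 4, with 83 of 664 genes (12.5%). It was lowest on chromosome 22, with 18 of 459 (3.92%), against 8.22% of all tested genes. These shares were not tested.

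Gene lists put names to the changes, and the counts of each list stand against 14.4% risen, 16.9% fallen, 7.71% above and 8.22% below control among all tested genes. For counts with 1 siRNA alone, the shares of all tested genes were 14.8% risen and 17.1% fallen for PHF12, and 19.6% and 19.2% for SUDS3. Lysosome and autophagy genes had the largest share of rises among lists with at least 10 tested members: 22 of 36 rose (61.1%), 3 fell, and 12 lay above control in all 6 libraries with none below (1 without control replicate 3). Their median change was 0.20 on the log2 scale, against -0.02 for all tested genes. With the PHF12 siRNA alone 13 rose and 3 fell, and with that against SUDS3 25 rose and 2 fell. The difference between the knockdowns passed in 27 of the 36, against 43.9% of all tested genes. Among the 26 members with none of the 3 heptamers, 14 rose (53.8%) and 1 fell (3.85%), against 20.5% and 15.4% of all tested genes with none. CTSA, the lysosomal protective protein, stood at 73.3, 69.3 and 65.3 CPM in controls, 112, 103 and 109 with the PHF12 siRNA and 109, 109 and 105 with the SUDS3 siRNA. It rose by 0.64 with each siRNA, and its 3′ UTR held AGCAACC.

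Of the 36 genes, 11 did not pass. LAMP1, a major protein of the lysosomal membrane, rose by 0.26, PSAP, the precursor of the saposins, by 0.22, ATP6V0D1, a subunit of the proton pump, by 0.35, and NPC1, which exports cholesterol, by 0.27. PSAP stood at 359, 349.5 and 329.8 CPM in controls and at 388 to 411 in the 6 knockdown libraries, with no overlap. LAMP2, a second lysosomal membrane protein, was not apart from control, with changes of -0.01 with the PHF12 siRNA (adjusted p = 0.924) and 0.17 with that against SUDS3. MAP1LC3B, the autophagosome protein LC3, and NEU1, a sialidase, fell in the pooled test with opposite signs in the 2 knockdowns: MAP1LC3B changed by -1.18 and 0.19 and NEU1 by -1.34 and 0.28 with the PHF12 and the SUDS3 siRNA. In both the difference between the knockdowns passed (adjusted p = 8.62e-23 and 2.13e-22).

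Falls outnumbered rises in the pooled test in 4 lists of stress response genes, but not with each siRNA alone in every list. These lists are not separate, as SLC7A11 is both an integrated stress response and an NRF2 gene. Rises outnumbered falls among hypoxia and glycolysis genes (34.4% and 21.9%) and genes of interferon response and RNA sensing (17.2% and 10.3%). Of 31 genes of the integrated stress response, in which the factor ATF4 drives amino acid transport and synthesis, 16 fell (51.6%) and 4 rose (12.9%), with 8 below and 4 above control in all 6 libraries. With the PHF12 siRNA alone 15 fell and 3 rose, and with that against SUDS3 13 fell and 8 rose. ATF4 itself stood at 695, 715 and 685 CPM in controls, 600.0, 597 and 596 with the PHF12 siRNA and 587, 588 and 602 with the SUDS3 siRNA, a fall of 0.23 on the log2 scale. SLC7A11, the cystine importer, fell from 49.1, 58.8 and 55.4 CPM to 30.3, 31.5 and 32.3 and to 24.5, 23.7 and 26.8, and held both fall heptamers. PSAT1, an enzyme of serine synthesis without any of the 3 heptamers, fell by 0.36. AARS, the alanyl-tRNA synthetase, went the other way and rose by 0.29. Among the 24 members with none of the 3 heptamers 12 fell and 3 rose. Without control replicate 2, the count of rises in this list was 2 in place of 4.

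Of 28 genes of the unfolded protein response, which expands the folding capacity of the endoplasmic reticulum, 14 fell (50%) and 3 rose (5 with DESeq2), and 10 lay below control in all 6 libraries. The PHF12 siRNA alone gave 16 falls and 4 rises, and the SUDS3 siRNA 9 of each. HSPA5, the main chaperone of that compartment, stood at 1195, 1210.3 and 1261 CPM in controls, 987, 1034 and 1009 with the PHF12 siRNA and 1020.0, 1013 and 1120.5 with the SUDS3 siRNA, and fell by 0.25 on the log2 scale. The disulfide isomerase PDIA4 fell by 0.28 and the transcription factor XBP1 by 0.22, while DNAJB9, a cochaperone of HSPA5, rose by 0.37. Of 19 heat shock proteins and cochaperones 8 fell (42.1%) and 3 rose (15.8%), the rises numbering up to 5 under other settings, such as DESeq2. Here 6 fell and 6 rose with the PHF12 siRNA, against 8 and 2 with that against SUDS3. HSPD1, the mitochondrial chaperonin, stood at 1397, 1418 and 1466 CPM in controls, 988, 1031 and 1005 with the PHF12 siRNA and 978, 976 and 1024 with the SUDS3 siRNA. It fell by 0.51, and 17 pseudogenes are named after it.

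Targets of NRF2, the factor that responds to oxidative stress, gave 8 falls (44.4%) and 2 rises (11.1%, near the share of all genes) of 18, with 6 below control in all 6 libraries (33.3%) and none above. The 9 genes that passed with the PHF12 siRNA alone were falls, and with that against SUDS3 7 fell and 4 rose. HMOX1, heme oxygenase 1, stood at 51.2, 47.7 and 48.9 CPM in controls, 34.4, 35.1 and 36.7 with the PHF12 siRNA and 32.7, 33.0 and 35.1 with the SUDS3 siRNA, and fell by 0.52. TXNRD1, thioredoxin reductase, fell by 0.28. GSR, glutathione reductase, met the criterion but owed its pooled fall of 0.89 to 1 knockdown, with changes of -1.72 with the PHF12 siRNA and -0.05 (adjusted p = 0.47) with that against SUDS3. Of the 6 genes below control, 4 held a fall heptamer, against 46.3% of all genes below control. The 2 rises did not pass without control replicate 3.

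Of 25 immediate early and AP-1 genes, which respond first to growth signals, 8 fell (32%) and 1 rose (4%), and 5 lay below control throughout. JUN stood at 391, 411 and 425 CPM in controls, 363, 353 and 358 with the PHF12 siRNA and 239, 237 and 248 with the SUDS3 siRNA, and FOS fell by 0.47. Of 27 genes of the TGF-beta pathway 12 fell (44.4%) and 4 rose (14.8%), with 5 below control throughout. The receptors ACVR1B and ACVR2B fell by 0.60 and 0.41 and the ligand TGFB1 by 0.39. TGFBR1 fell in the pooled test only through the SUDS3 siRNA, with changes of 0.05 with the PHF12 siRNA and -1.74 with that against SUDS3. A fall heptamer was held by 13 of the 27 genes, against 25.1% of all tested genes with a 3′ UTR. One was held by 3 of the 5 below control, against 46.3% of all genes below control.

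Of 24 targets of p53, 10 rose (41.7%) and 8 fell (33.3%), with 8 above control throughout and 2 below (4 without PHF12 replicate 2). HEK293T cells carry a viral protein that binds p53. BTG2, an antiproliferative gene, stood at 32.8, 37.7 and 33.6 CPM in controls, 43.9, 43.0 and 42.1 with the PHF12 siRNA and 62.9, 64.4 and 63.5 with the SUDS3 siRNA. PHLDA3, an inhibitor of AKT, rose by 0.62 and FDXR, ferredoxin reductase, by 0.66, while ZMAT3, an RNA-binding protein, fell by 0.54. CDKN1A, the cell cycle inhibitor p21, fell by 0.14, with an adjusted p of 0.0611 without control replicate 1 and 0.0669 without control replicate 2. Without control replicate 2 the rises in this list numbered 6 in place of 10. Of 35 genes of the G1/S transition and DNA replication, 12 fell (34.3%) and 5 rose (14.3%, near the share of all genes), with 9 below control throughout and 4 above. The knockdowns leaned opposite ways in this list: 14 rose and 11 fell with the PHF12 siRNA, 4 rose and 17 fell with that against SUDS3, and the difference between them passed in 25 genes. TYMS, thymidylate synthase, stood at 192, 197 and 196 CPM in controls and at 153 to 167 in the 6 knockdown libraries, and RRM2, a subunit of ribonucleotide reductase, fell by 0.30. CCNE1, cyclin E1, rose by 0.28.

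Zinc transport held the gene with the smallest p among named list members. SLC39A6, a zinc importer, stood at 232, 237 and 242 CPM in controls, 61.5, 65.7 and 71.2 with the PHF12 siRNA and 124, 125 and 130.1 with the SUDS3 siRNA. It fell by 1.84 and by 0.91 on the log2 scale with the PHF12 and the SUDS3 siRNA, and held both fall heptamers. SLC39A10, a related importer, fell by 0.80 pooled. MT1F, a metallothionein that binds zinc, rose by 1.14, from 0.914, 0.778 and 1.27 CPM to 2.08, 1.98 and 2.22 and to 2.38, 1.92 and 2.45. The list of 20 had 7 falls (35%) and 4 rises (20%) in all.

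**Figure D4:**
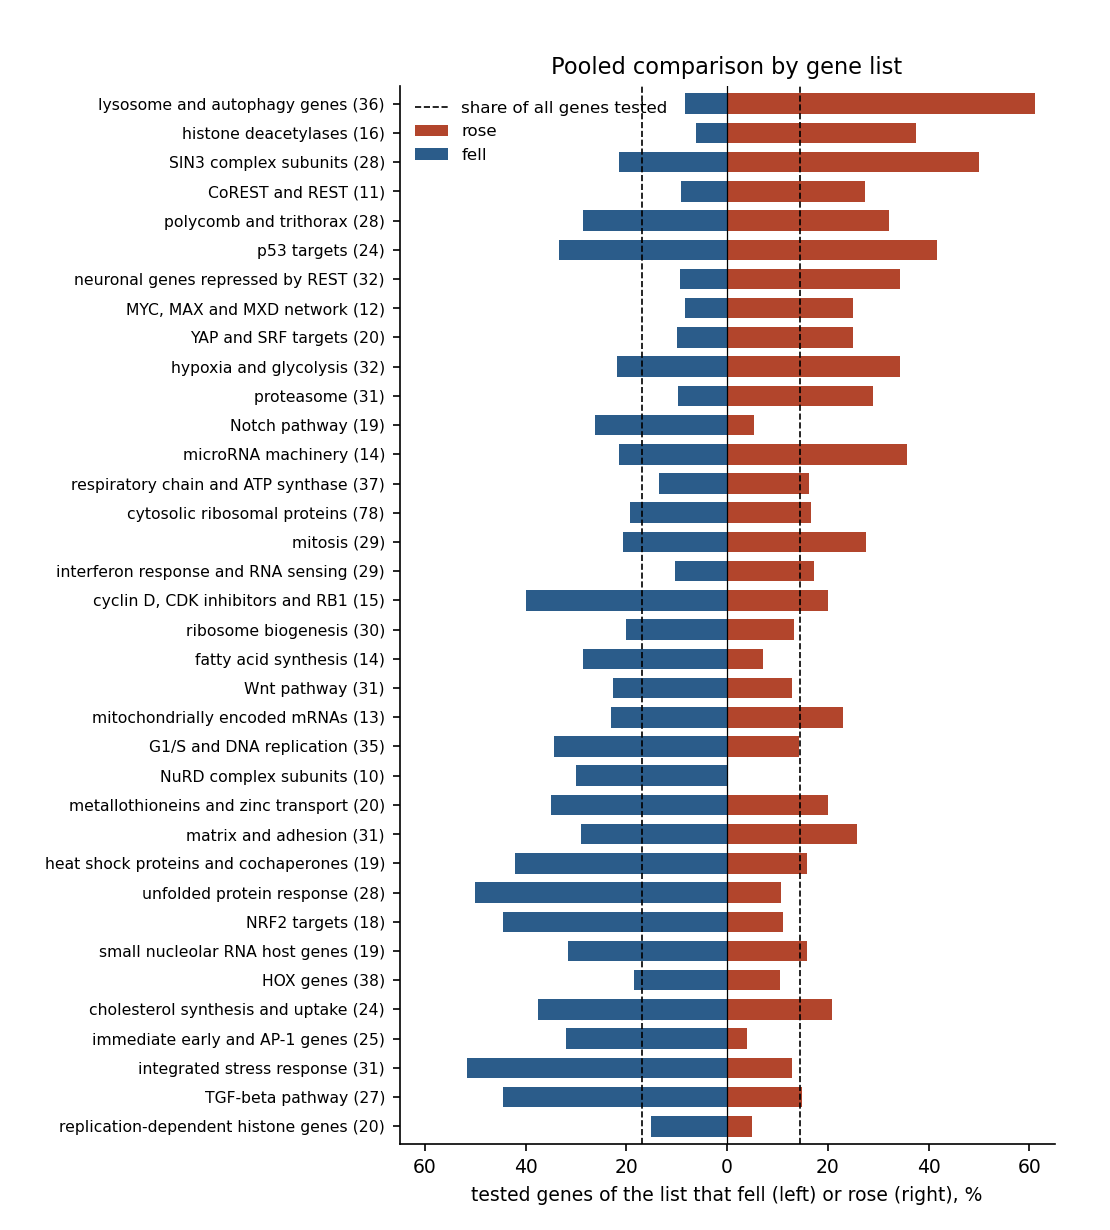
Percent of the tested genes of each list that rose (right) or fell (left) in the pooled test, ordered by median change, with the number of tested genes in brackets, lists with at least 10 tested genes and no marker lists. Dashed lines mark 14.4% and 16.9%, the shares of all tested genes; lysosome and autophagy genes reach 61.1% on the right and the integrated stress response 51.6% on the left.

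Of 28 subunits of SIN3 complexes, both targets included, 14 rose (50%) and 6 fell (21.4%), with PHF12 and SUDS3 among the falls, whose share is near that of all genes. With the PHF12 siRNA alone 12 rose and 7 fell, and with that against SUDS3 17 rose and 5 fell. The difference between the knockdowns passed in 22 of the 28. Above control in all 6 libraries were 6 subunits: ARID4A, HDAC1, KDM5B, TET1, SIN3A and BRMS1. ARID4A, a DNA-binding subunit, stood at 30.5, 30.8 and 31.0 CPM in controls, 37.2, 36.1 and 39.7 with the PHF12 siRNA and 38.6, 39.0 and 40.3 with the SUDS3 siRNA. It rose by 0.32 with no difference found between the knockdowns (adjusted p = 0.471). HDAC1 leaned to the PHF12 siRNA, with rises of 0.56 and 0.10, and KDM5B, a histone demethylase, to the SUDS3 siRNA, with rises of 0.12 and 0.57. SIN3A stood at 125, 131 and 126 CPM in controls, 132, 136 and 135 with the PHF12 siRNA and 156, 161 and 159 with the SUDS3 siRNA.

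SINHCAF, a subunit known from embryonic stem cells, fell by 0.34, from 89.9, 85.0 and 88.3 CPM to 65.6, 74.3 and 70.5 and to 64.1, 67.8 and 74.7. GATAD1, a zinc finger subunit, fell by 0.16. BRMS1L, a paralogue of SUDS3, and FOXK2, a transcription factor bound to the complex, moved in opposite directions: BRMS1L changed by 0.29 with the PHF12 siRNA and -1.10 with that against SUDS3, and FOXK2 by -0.74 and 0.18. BRMS1L held GTACATT and FOXK2 held AATCACA. SIN3B rose by 0.14, with an adjusted p of 0.0719 without control replicate 2. With the knockdowns as 1 group, 1 subunit of the list rose and 1 fell.

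Of 28 polycomb and trithorax genes 9 rose (32.1%) and 8 fell (28.6%), the falls numbering 5 without control replicate 2 or 3. The methyltransferases KMT2A and KMT2D rose by 0.22 and 0.19, and the polycomb subunits PCGF3 and PCGF5 fell by 0.36 and 0.37. Of 16 histone deacetylases 6 rose (37.5%) and 1 fell (6.25%), and HDAC5 rose by 0.31. Of 10 subunits of NuRD, another deacetylase complex, 3 fell in the pooled test (1 without control replicate 1) and 6 with the SUDS3 siRNA alone. None lay apart from control in all 6 libraries, against 15.9% of all tested genes. Leaving out control replicate 3, PHF12 replicate 1 or PHF12 replicate 3 put 1 below control, and leaving out SUDS3 replicate 1 put 1 above.

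In several lists the median changes with the 2 siRNAs had opposite signs. Of 38 HOX genes, which set body position, 4 rose (10.5%) and 7 fell (18.4%), the falls numbering 4 without control replicate 2. Among all tested genes 14.4% rose and 16.9% fell. The HOX medians were 0.38 with the PHF12 siRNA and -0.44 with that against SUDS3. Of HOX genes 5.26% lay apart from control, against 15.9% of all tested genes. HOXA7 was above control in all 6 libraries, at 19.0, 19.7 and 19.3 CPM with the PHF12 siRNA and 13.3, 17.1 and 12.8 with the SUDS3 siRNA, against 10.1, 12.1 and 8.97. Of 32 neuronal genes repressed by REST 11 rose (34.4%) and 3 fell (9.38%), the rises numbering 7 without control replicate 3. Their medians were -0.41 and 0.41, and 3 lay apart from control (9.38%, against 15.9% of all tested genes). NPTX1, a neuronal pentraxin, fell with both siRNAs, by 1.41 and 0.42. Cytosolic ribosomal proteins had 13 rises (5 without control replicate 3) and 15 falls (7 without control replicate 1) of 78, or 16.7% and 19.2%, near the shares of all genes, with medians of 0.12 and -0.11, and the difference between the knockdowns passed in 69 of the 78. RPLP0, a stalk protein of the large subunit, nevertheless rose by 0.36 and RPL41 fell by 0.24 in the pooled test.

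Of 14 genes of the microRNA machinery 5 rose (35.7%) and 3 fell (21.4%), with 3 above and 2 below control throughout. LIN28B, which blocks let-7 maturation, stood at 125, 135 and 145 CPM in controls, 76.3, 78.3 and 76.7 with the PHF12 siRNA and 97.0, 94.3 and 98.0 with the SUDS3 siRNA. DICER1, the nuclease that makes small RNAs, fell by 0.64 and 0.16 with the 2 siRNAs, and both genes held AATCACA. Among markers of the line and of other cell types, CDH2, N-cadherin, fell by 0.37 and 1.18 and WT1, a kidney transcription factor, by 0.74 and 0.85, in the order PHF12 and SUDS3. They are 2 of the 5 that fell among 14 tested lineage markers, where 3 rose and the median pooled change was 0.05. COL1A1, a fibrillar collagen, rose by 0.69, and CDH1, E-cadherin, fell by 0.99 from at most 6.31 CPM in controls. CDH1 was the only 1 of 4 tested epithelial markers that passed.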

How the data were processed

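Per the labels, stranded poly-A libraries were sequenced. The submitters' processing notes name Trimmomatic 0.36, HISAT2 2.1.0 and HTSeq with build GRCh38, and a strand setting for counting was not given in the sources used here. Deposited by the authors were whole-number counts for 58735 genes and TPM, scaled for length to 1000000 per library. All identifiers matched GENCODE 29. Of the counts above 0, 96.1% are multiples of 4, so 1 fragment may be worth 4 counts, and counting error is larger than the totals imply.

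The fit to the counts used edgeR 4.0.16, R 4.3.3 (filterByExpr at a minimum count of 10, TMM scaling, robust quasi-likelihood with a mean for each of the 3 groups). The pooled contrast is the mean of both knockdowns minus control, with separate contrasts for each knockdown and for their difference, and Benjamini-Hochberg adjustment over all 18088 genes. CPM are counts scaled by TMM, which the text uses for levels, and are not scaled for gene length. Among genes under the filter, 10891 had a count, of which 21 lay above and 83 below control in all 6 libraries, and 29756 had none. The fit was checked on simulated counts. No pair of replicates was identical. On counts divided by 4, chi-square over degrees of freedom between replicates ran from 1.35 to 2.11, and it would be larger on the deposited counts.

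Named genes are PHF12, SUDS3, every SIN3 subunit that passed, the 15 protein-coding and 5 other genes in each direction with the largest smaller change of the 2 knockdowns, and 2 genes per list by p. The ranked genes passed, met the criterion and averaged at least 1 in log2 CPM. This gives 123 genes, and 27 list members were added after their values were seen. One of these genes and one heptamer site are not reported here. Of the 150, 49 overlap another tested gene on the opposite and 10 on the same strand, and 27 share their name with pseudogenes, so other genes' reads may be counted in them. The comparison and the 40 gene lists were chosen with earlier results of these data known. Heptamers were ranked in 11668 3′ UTRs after the data were seen. Alternatives were other scalings (DESeq2 size factors, upper quartile, library totals), filters and tools (DESeq2 1.42.0, limma-voom 3.58.1), counts divided by 4, the replicate block, 1 group of 6, TPM, and each library left out.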

Additional observations from a re-analysis of the deposited data

Results flagged for a closer look

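In 10 of the genes with the largest shared changes, the size of the change differed between the SUDS3 and the PHF12 knockdown by the edgeR test of that difference, although the direction was shared. Given as SUDS3 minus PHF12 on the log2 scale, the difference was 0.23 for MPRIP (adjusted p = 1.11e-06) and 0.39 for CIRBP-AS1 (adjusted p = 0.02), both of which rose more with the SUDS3 siRNA. Among falls, the difference was -0.56 for PKIA (adjusted p = 1.04e-05), -0.39 for RAB23 (adjusted p = 3.95e-05), -0.32 for PRKAR2B (adjusted p = 0.00757) and -0.33 for FENDRR (adjusted p = 0.047), which fell further with the SUDS3 siRNA. It was 0.74 for CA12 (adjusted p = 0.00081), 0.28 for ADI1 (adjusted p = 6.33e-06), 0.25 for C3orf58 (adjusted p = 0.0225) and 0.18 for TPD52 (adjusted p = 0.0323), which fell further with the PHF12 siRNA.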

How the results depend on the processing

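Fitting the 6 knockdown libraries as 1 group, which counts the difference between knockdowns as error, left 490 rises and 470 falls in the pooled test. Of genes also apart from control it left 490 rises and 468 falls, 958 of which had passed with separate means. There 5 lysosome and autophagy genes rose, and 4 of the integrated stress response and 3 of the unfolded protein response fell. Under every other alternative run, the counts of rises, falls and genes apart stayed within 1.5 times. Leaving out 1 library gave 2132 to 2570 pooled rises and 2490 to 2951 falls. By TPM 1517 genes lay above and 1376 below control throughout, 2771 of them shared with the CPM criterion. Same-numbered libraries showed no shared deviation (correlations of -0.0565 to 0.0563). As counting error can hide a weak one, whether the numbers pair the libraries cannot be told. With a replicate block, 2652 genes rose and 2605 of the 2624 genes apart and passed remained. For single named genes, 2758 of 2850 repeats kept direction and call, 92 kept the direction only and none changed sign; 65 genes lost the call as 1 group of 6, and 9 of these in other repeats too. Among the 9, COL3A1 and PHF21A also lost it under limma-voom (adjusted p = 0.0615 and 0.0507).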
